A study of Homo sapiens with 6 samples.

Results

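The enzymes that write and erase methyl groups on histone lysines, remove acetyl groups from them or methylate DNA were followed in senescent A549 cells. Members were all genes of the deposited table whose symbol is KDM, KMT, SETD, HDAC or SIRT followed by a digit, together with EZH1, EZH2, EHMT1, EHMT2, SUV39H1, SUV39H2, SETDB1, SETDB2, NSD1 to NSD3, the HUSH complex genes TASOR, MPHOSPH8 and PPHLN1, and DNMT1, DNMT3A and DNMT3B. The rule gave 71 of 16670 genes, and it used no measured value. A549 is an established human line of lung adenocarcinoma origin. Before any comparison, the cells of all 6 libraries had spent 1 week in alisertib, which blocks the Aurora A kinase of mitosis and was given to induce senescence. The salinomycin group (3 libraries) then received 2.5 µM salinomycin, a polyether ionophore that carries alkali metal ions across membranes, for 48 h, and the untreated group (3 libraries) received no further drug. The labels call the libraries of a group biological replicates without saying whether they were separate cultures, so p-values measure the spread between these libraries. Cells without alisertib were not analysed here.

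Histone lysine methylation marks chromatin states: H3K4 methylation lies at active promoters and enhancers, H3K36 methylation over transcribed gene bodies, and H3K9, H3K27 and H4K20 methylation over silent or compacted chromatin. Methyltransferases use S-adenosylmethionine, Jumonji demethylases need iron and 2-oxoglutarate, classical histone deacetylases (HDACs) are zinc enzymes, and sirtuins consume NAD. Loss and redistribution of heterochromatin, with changed levels of such enzymes, are known features of senescent cells.

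Levels are given in normalised units, the authors' rescaled values after removal of an added 1 and trimmed-mean (TMM) scaling. A change is the log2 ratio of salinomycin to untreated (value plus 1), tested with limma over 13088 genes at a Benjamini-Hochberg adjusted p under 0.05. Reads recovered from the steps of the low values numbered 14928901 to 19641546 in salinomycin libraries and 13540156 to 16293117 in untreated libraries. The 13 mitochondrially encoded genes held 0.289% to 0.351% of all values in salinomycin libraries and 3.37% to 3.72% in untreated libraries. The summed level of 5 epithelial markers was 33824 to 37954 units in salinomycin libraries and 152080 to 167705 units in untreated libraries, with each marker detected in every library. KRT8 and KRT18 carried that sum, whereas KRT19 was higher in every salinomycin library (2909 to 3446 units, against 1851 to 1927 units). Of 7 fibroblast markers 2 reached 10 units in every library while DCN was at 0 in each salinomycin library, and the 7 summed to 474 to 514 units in salinomycin and 851 to 1175 units in untreated libraries. The 3 leukocyte markers in the table summed to 47.8 to 72.3 units with salinomycin and 193 to 226 units without it. CD14 carried that sum, whereas LYZ (17.8 to 22.5 units, against 3.24 to 11.7 units) and CD68 (4.69 to 14.1 units, against 0 to 3.24 units) were higher in every salinomycin library. The 3 endothelial markers summed to 2.82 to 10.2 units with salinomycin and 9.6 to 15.1 units without it. The part of these shifts in the results below was not tested. In bulk RNA, fewer cells expressing a gene and less of its RNA per cell cannot be told apart.

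Most enzyme classes held both members that rose and members that fell with salinomycin. HDAC10 and KDM4E were too low to test in the main fit. Of 69 tested members, 33 rose (47.8%, against 41.6% of all tested genes), 23 fell (33.3%, against 40.2%) and 13 did not pass. The 56 members called made up 81.2% of those tested, near the 81.9% of all genes. The median log2 change was 0.20 over the tested members and 0.02 over all tested genes. Among the members 15 (21.7%) changed at least 2-fold, against 35.3% of all tested genes. They comprised 10 higher members, against 16.8% of all genes, and 5 lower members, against 18.5%. The 3 salinomycin libraries did not overlap the 3 untreated libraries for 57 members (82.6%), against 83.0% of all genes. With scaling by library size alone, which raised the median of all genes by 0.19, 40 members rose and 15 fell (58% and 21.7% of 69). Of all 13088 tested genes, 6461 rose and 4353 fell under that scaling. Calls on small changes thus depend on the scaling.

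**Figure D1:**
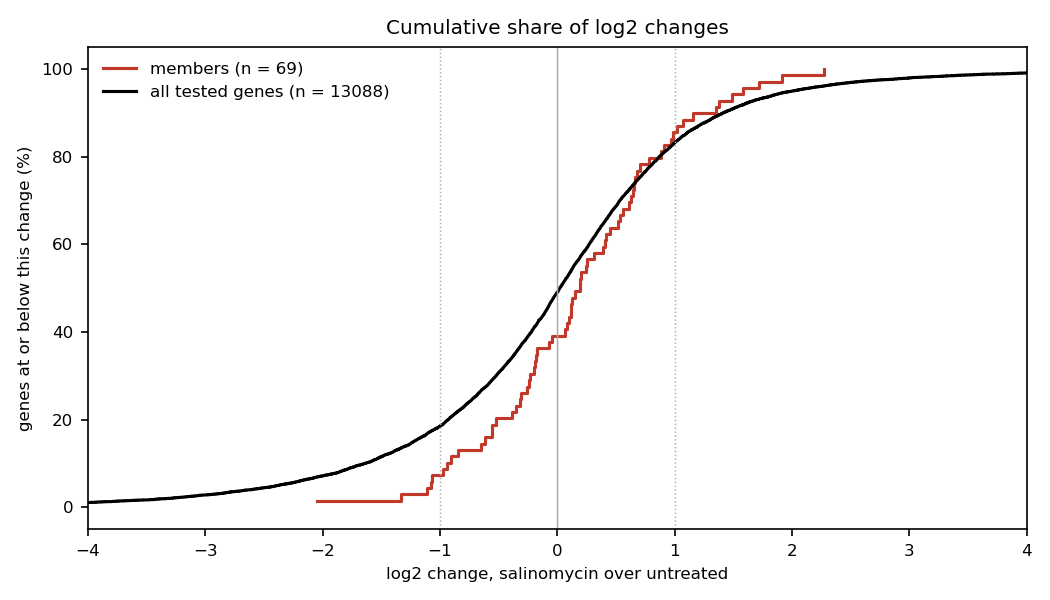
Cumulative percentage of genes (vertical axis) at or below a given log2 change of salinomycin over untreated (horizontal axis) for the 69 tested members (red) and all 13088 tested genes (black), with dotted lines at 2-fold and the outermost of all genes beyond the axis. The members run from -2.05 to 2.27 and 15 of them lie beyond the dotted lines.

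The members that rose at least 2-fold were KMT5C (4.83-fold), SIRT2 (3.77-fold), HDAC5 (3.29-fold), KDM6B (3.00-fold), HDAC9 (2.81-fold), SETDB2 (2.6-fold), HDAC6 (2.55-fold), KDM4C (2.22-fold), SIRT7 (2.10-fold) and KDM1B (2.03-fold). Those that fell at least 2-fold were DNMT3A (4.14-fold), SETD9 (2.51-fold), KDM3B (2.16-fold), HDAC1 (2.11-fold) and DNMT3B (2.10-fold). All 15 kept their direction and their call under each of the 17 other settings in which they were tested. HDAC9 could not have passed the filter on low values without the salinomycin libraries, where it is higher, so its call is weak support.

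**Figure D2:**
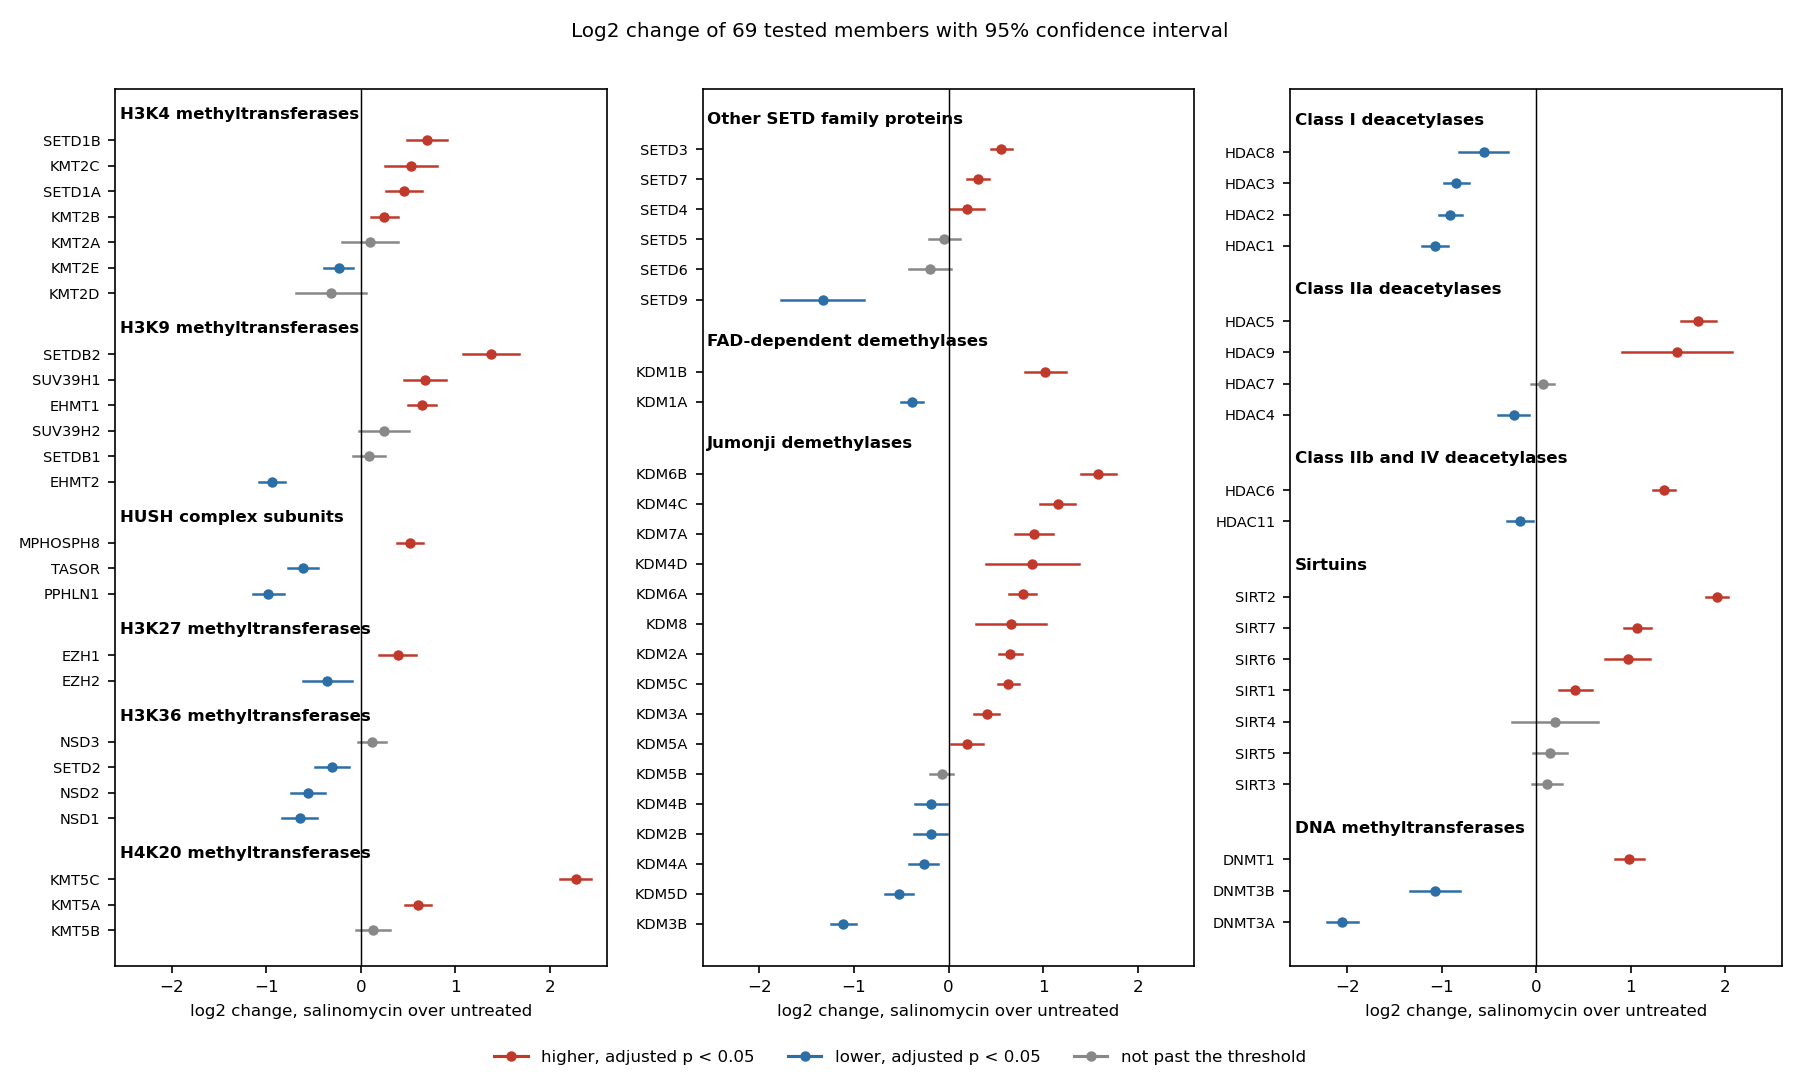
Log2 change of salinomycin over untreated (horizontal axis) for the 69 tested members by class, as points with 95% confidence intervals from limma, red where higher, blue where lower and grey where not past the adjusted p threshold. All 4 class I deacetylases lie left of 0 and all 7 sirtuins right of it, and the outermost members are KMT5C at 2.27 and DNMT3A at -2.05.

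RefSeq promoters (GRCh38.p14) were matched for 66 of the 71 members. Those of the 3 largest rises and the largest fall among the matched members are shown, since they mark the ends of the response. The 250 bases upstream of RefSeq's start are printed 5′ to 3′ on the gene's strand. RefSeq and GENCODE starts differ, so 23 bases of the KMT5C window, 244 of the SIRT2 window and 107 of the DNMT3A window lie inside the GENCODE gene given with the results. The KDM6B window ends at 7834216, wholly before its GENCODE start at 7839904, and does not adjoin that start. Capitals mark CCAAT on either strand, the core motif of the factor NF-Y.

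KMT5C (chr19:55339626-55339875, + strand): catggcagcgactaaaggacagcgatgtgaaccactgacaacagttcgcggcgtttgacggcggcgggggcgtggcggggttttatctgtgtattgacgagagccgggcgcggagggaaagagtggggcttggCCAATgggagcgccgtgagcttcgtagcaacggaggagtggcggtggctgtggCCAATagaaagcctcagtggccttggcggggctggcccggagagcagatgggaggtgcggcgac

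SIRT2 (chr19:38899619-38899868, − strand): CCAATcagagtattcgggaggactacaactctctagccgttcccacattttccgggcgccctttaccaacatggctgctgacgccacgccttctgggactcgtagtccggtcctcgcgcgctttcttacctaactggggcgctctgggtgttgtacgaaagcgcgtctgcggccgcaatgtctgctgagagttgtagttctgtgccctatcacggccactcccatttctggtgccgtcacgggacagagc

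KDM6B (chr17:7833967-7834216, + strand): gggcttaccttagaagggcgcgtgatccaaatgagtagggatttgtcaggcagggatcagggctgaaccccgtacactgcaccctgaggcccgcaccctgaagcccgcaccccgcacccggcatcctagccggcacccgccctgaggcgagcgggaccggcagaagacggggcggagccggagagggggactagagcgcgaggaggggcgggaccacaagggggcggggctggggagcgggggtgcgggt

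DNMT3A (chr2:25342484-25342733, − strand): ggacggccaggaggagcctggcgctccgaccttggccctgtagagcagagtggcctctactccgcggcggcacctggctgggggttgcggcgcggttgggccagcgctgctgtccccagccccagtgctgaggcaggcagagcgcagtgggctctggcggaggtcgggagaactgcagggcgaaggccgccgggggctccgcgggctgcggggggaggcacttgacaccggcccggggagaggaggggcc

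KMT5C holds 2 CCAAT matches and SIRT2 holds 1, while none occurs in the KDM6B and DNMT3A windows. The motif occurred in 40% of 30 promoters of members that rose, 39.1% of 23 that fell, 36.4% of all 66 matched members and 34.7% of 10563 promoters of tested genes. Stress motifs were also searched on both strands. TGACGTG, an unfolded protein response element, occurred in 1 member promoter (1.52%, against 2.13% of tested genes). TGATGNAAT, an ATF4 response element, occurred in 0 member promoters (against 0.435%), and CACGTG, an E-box, occurred in 9 (13.6%, against 8.73%). The median GC content was 66.6% in member promoters and 65.2% in those of tested genes, with CpG observed-over-expected ratios of 0.89 and 0.82. A match describes letters in this window and does not show binding.

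Class I deacetylases fell in 4 of 4 cases, against 40.2% of all tested genes. With library-size scaling 4 of 4 fell as well, against 4353 of all 13088 tested genes. HDAC1, a catalytic subunit of the NuRD, SIN3 and CoREST complexes (chromosome 1, 32292086 to 32333635), had 689.7, 769.7 and 756 units in salinomycin libraries, against 1553, 1636 and 1476 units in untreated libraries. The groups did not overlap, and the log2 change was -1.07 (SE 0.063; limma adjusted p = 1.17e-08). HDAC2, its close paralog in the same complexes, averaged 706 ± 31.9 units with salinomycin and 1324 ± 19.8 units without it (SD, n = 3 each), a log2 change of -0.91. HDAC3, the catalytic subunit of the NCoR and SMRT corepressors, changed by -0.84. HDAC8, which deacetylates cohesin, changed least of the class, by -0.55, from lower levels of 115 ± 9.07 and 169 ± 19.9 units.

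The deacetylases outside class I moved apart. HDAC5, a class IIa enzyme that shuttles between nucleus and cytoplasm and restrains MEF2 factors, had 1020.2, 1094 and 1084 units in salinomycin libraries, against 356, 286 and 333 units in untreated libraries (log2 change 1.72, SE 0.082; limma adjusted p = 1.91e-09). HDAC6, the cytoplasmic tubulin deacetylase of class IIb that also binds ubiquitinated proteins (X chromosome, 48801377 to 48824982), had 4098, 3786 and 3780.3 units with salinomycin, against 1571, 1489.5 and 1501 units without it (log2 change 1.35, SE 0.052; limma adjusted p = 2.76e-10). Every salinomycin library stood above every untreated library for both genes. HDAC9, of class IIa, was near the filter, at 25.0, 29.1 and 22.5 units in salinomycin and 6.49, 10.6 and 8.54 units in untreated libraries, and its log2 change of 1.49 became 1.02 with a pseudocount of 8.

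Smaller differences were found for the other deacetylases. HDAC4, of class IIa, had 388, 416 and 366 units with salinomycin and 464, 435 and 481 units without it (log2 change -0.24; limma adjusted p = 0.0124), and it lost the call under library-size scaling (-0.05). HDAC11, the class IV enzyme, had 568, 605 and 579 units in salinomycin and 655, 645 and 673 units in untreated libraries (log2 change -0.17; limma adjusted p = 0.0204). Its call was lost without salinomycin replicate 1 or untreated replicate 3 (adjusted p up to 0.0613), and its sign turned under library-size scaling, to 0.02. HDAC7, at 1838 ± 37.6 and 1755 ± 114 units, did not pass (95% confidence interval of the log2 change -0.06 to 0.19), and passed as higher under library-size scaling (0.26). HDAC10, of class IIb, stayed below the filter at 3.7, 0.938 and 0.939 units in salinomycin and 7.57, 7.45 and 14.9 units in untreated libraries. It was not tested in the main fit, and with no filter it was called lower from these low levels.

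Sirtuins rose in 4 of 7 cases and fell in 0 (57.1% and 0%, against 41.6% and 40.2% of all tested genes). Under library-size scaling 6 of 7 were higher, against 6461 of all 13088 tested genes. SIRT2, a mainly cytoplasmic deacetylase of tubulin and of H4K16 (chromosome 19, 38878555 to 38899862), had 4153, 4385 and 4573 units in salinomycin libraries, against 1182, 1159 and 1134 units in untreated libraries (log2 change 1.91, SE 0.052; limma adjusted p = 1.83e-11). SIRT7, the nucleolar enzyme linked to ribosomal RNA transcription, rose by 1.07 to 1091 ± 50.7 units with salinomycin, against 519.6 ± 28.0 units without it. SIRT6, a chromatin-bound enzyme of H3K9 and H3K56 deacetylation, rose by 0.97, with 269 ± 3.74 units in salinomycin and 138 ± 17.7 units in untreated libraries.

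SIRT1, the founding nuclear sirtuin and a p53 deacetylase, had 569, 518 and 468 units with salinomycin and 383, 385 and 395 units without it, with no overlap between groups (log2 change 0.41, SE 0.080; limma adjusted p = 0.000447). The mitochondrial sirtuins differed by less. SIRT3, SIRT4 and SIRT5 had log2 changes of 0.11, 0.20 and 0.15 with overlapping groups and did not pass (limma adjusted p = 0.17, 0.392 and 0.116). SIRT3 and SIRT5 passed under library-size scaling (0.30 and 0.34), SIRT3 also without untreated replicate 1 (0.18) and SIRT5 without untreated replicate 2 (0.22).

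**Figure D3:**
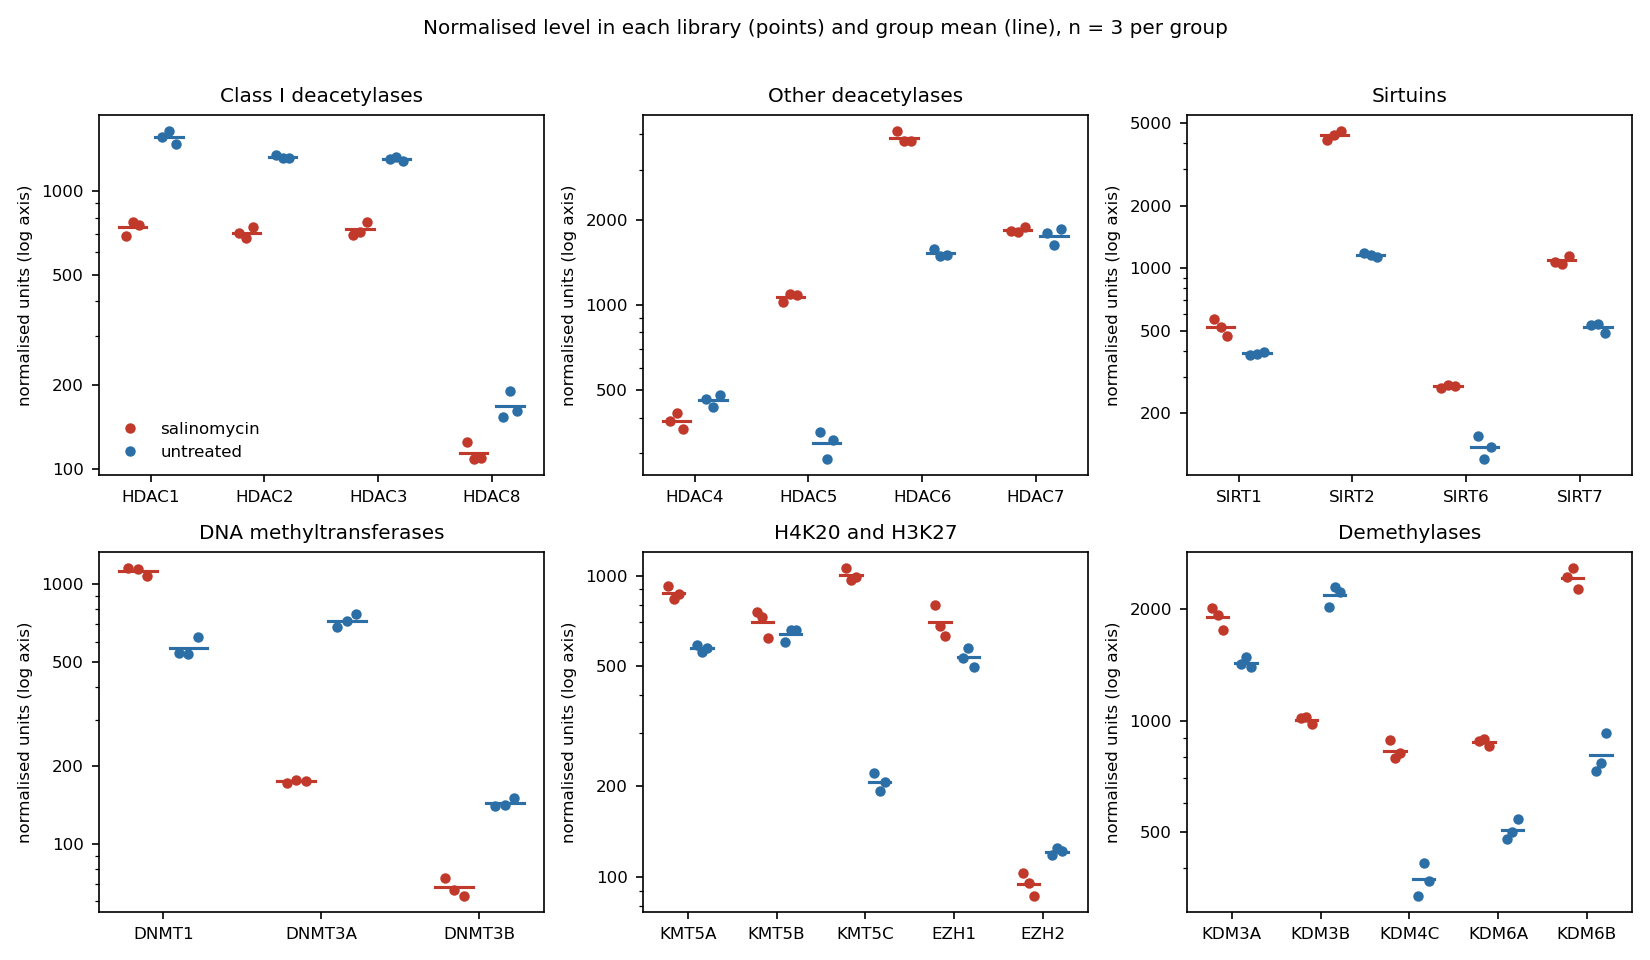
Normalised units (vertical log axis) in each of 3 salinomycin libraries (red) and 3 untreated libraries (blue) for 25 members in 6 panels, with lines at group means. HDAC1, HDAC2 and HDAC3 lie between 675 and 774 units with salinomycin, against 1282 to 1636 units without it, while SIRT2, HDAC5, HDAC6, KMT5C and KDM6B lie higher in every salinomycin library.

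The DNA methyltransferases, which add the methyl mark to cytosines, split by type. DNMT3A, a de novo enzyme (chromosome 2, 25227855 to 25342590), had 171, 176 and 174 units in salinomycin libraries, against 683, 721 and 764 units in untreated libraries (log2 change -2.05, SE 0.075; limma adjusted p = 1.79e-10). DNMT3B, the second de novo enzyme, averaged 67.8 ± 5.69 and 143 ± 6.09 units (log2 change -1.07). DNMT1, the maintenance enzyme that copies methylation after replication, had 1149.8, 1146 and 1077 units with salinomycin, against 544, 538 and 625 units without it (log2 change 0.98, SE 0.070; limma adjusted p = 6.66e-08). None of the 3 genes had overlapping groups. Among 7 further genes of the DNA methylation cycle 3 rose and 4 fell, against 41.6% and 40.2% of all tested genes. MBD4, a DNA glycosylase, rose most (2.57-fold), and TET1, an enzyme that oxidises methylcytosine, fell most, from low levels (19.3 ± 4.55 and 62.7 ± 22.9 units).

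H4K20 methyltransferases rose in 2 of 3 cases, against 41.6% of all tested genes, and included the largest rise of any member. KMT5C, which lays down H4K20 trimethylation at heterochromatin (chromosome 19, 55339853 to 55348120), had 1057, 965 and 988 units in salinomycin libraries, against 222, 193 and 207 units in untreated libraries. The groups were far apart, with a log2 change of 2.27 (SE 0.076; limma adjusted p = 8.88e-11). KMT5A, the H4K20 monomethyltransferase, rose by 0.61 to 873 ± 43.4 units, against 573 ± 15.3 units in untreated libraries. KMT5B, a paralog of KMT5C, did not pass (log2 change 0.13, 95% confidence interval -0.05 to 0.30; limma adjusted p = 0.171), and passed without salinomycin replicate 3 (0.20) and under library-size scaling (0.32).

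Of 6 H3K9 methyltransferases 3 rose and 1 fell, against 41.6% and 40.2% of all tested genes. Under library-size scaling 5 of these 6 were higher, against 6461 of all 13088 tested genes. SETDB2 had 258, 233 and 214 units with salinomycin, against 76.8, 107 and 87.5 units without it (log2 change 1.38, SE 0.135; limma adjusted p = 1.29e-06). SUV39H1, which trimethylates H3K9 at pericentric heterochromatin, had 309, 335 and 365 units with salinomycin and 197, 198 and 236 units without it (log2 change 0.68, SE 0.10; limma adjusted p = 5.13e-05). The groups of neither gene overlapped. EHMT1 and EHMT2 encode the paired subunits of the GLP and G9a H3K9 dimethyltransferase and moved in opposite directions. EHMT1 rose by 0.65, whereas EHMT2 had 425, 437 and 465 units with salinomycin and 872, 829 and 853 units without it (log2 change -0.94, SE 0.063; limma adjusted p = 3.76e-08).

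SETDB1, the H3K9 trimethylating enzyme that works with TRIM28 and the HUSH complex on retroelements, had 808, 782 and 728 units in salinomycin and 665, 802 and 721 units in untreated libraries. The groups overlapped and it did not pass (log2 change 0.09, 95% confidence interval -0.08 to 0.25; limma adjusted p = 0.314), though it passed under library-size scaling (0.28). SUV39H2 also did not pass (0.25; limma adjusted p = 0.0785), and passed without untreated replicate 3 (0.32) and under library-size scaling (0.44). The 3 HUSH subunits, which hold repeats silent, did not move together. PPHLN1, the periphilin subunit, had 666, 701 and 616 units with salinomycin, against 1231, 1433 and 1247 units without it (log2 change -0.98, SE 0.074; limma adjusted p = 1.13e-07), and the scaffold TASOR changed by -0.61. MPHOSPH8, the subunit that reads H3K9 methylation, had 1282, 1163 and 1187 units with salinomycin and 825, 889 and 815 units without it (log2 change 0.52, SE 0.061; limma adjusted p = 6.76e-06).

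Partners of H3K9 methylation were also mixed, with 3 of 6 genes higher and 2 lower, against 41.6% and 40.2% of all tested genes. TRIM28, the KAP1 corepressor, rose 2.29-fold to 12447 ± 431 units, against 5447 ± 400.04 units in untreated libraries. CBX3, which encodes the heterochromatin protein HP1 gamma, fell 1.59-fold.

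The H3K27 methyltransferases moved in opposite directions by small amounts. EZH1, the Polycomb enzyme prominent in non-dividing cells, had 796, 683 and 629.9 units in salinomycin libraries and 533, 575 and 497 units in untreated libraries (log2 change 0.39, SE 0.090; limma adjusted p = 0.00163). EZH2, the Polycomb enzyme of dividing cells, had 103, 95.6 and 86.4 units with salinomycin and 118, 124 and 122 units without it. Its groups did not overlap, and the log2 change was -0.35 (SE 0.117; limma adjusted p = 0.0145). The call on EZH2 was lost without salinomycin replicate 3 (-0.30; adjusted p = 0.055) and under library-size scaling (-0.16; adjusted p = 0.217). MKI67, a marker of dividing cells, was at 12.1 ± 3.3 and 51.3 ± 18.5 units, and its part in this result was not tested.

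Of 9 PRC2 partner subunits 3 rose and 5 fell, against 41.6% and 40.2% of all tested genes, and 1 did not pass. PHF1, an accessory subunit, rose 4.26-fold, and RBBP7, a histone-binding subunit shared with HDAC complexes, fell 2.20-fold. The core subunits EED and SUZ12 had log2 changes of -0.31 and -0.19.

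H3K36 methyltransferases fell in 3 of 4 cases and rose in 0 (75% and 0%, against 40.2% and 41.6% of all tested genes). With library-size scaling 2 were lower and 1 higher, against 4353 and 6461 of all 13088 tested genes. NSD1, which dimethylates H3K36, had 999, 1065 and 969.7 units in salinomycin libraries, against 1358, 1679 and 1739 units in untreated libraries (log2 change -0.65, SE 0.085; limma adjusted p = 1.87e-05). NSD2, of the same family, changed by -0.56. SETD2, which trimethylates H3K36, changed by -0.31 and did not pass under library-size scaling (-0.12). NSD3 did not pass (0.12), but passed as higher without untreated replicate 3 (0.17) and under library-size scaling (0.31).

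Among H3K4 methyltransferases 4 of 7 rose and 1 fell, against 41.6% and 40.2% of all tested genes. SETD1B, a catalytic subunit of the SET1 COMPASS complex, had 756, 747 and 649 units with salinomycin, against 408, 409.6 and 509 units without it (log2 change 0.70, SE 0.096; limma adjusted p = 2.54e-05). SETD1A, of the sister complex, rose by 0.45, and the MLL-family genes KMT2C and KMT2B rose by 0.53 and 0.25. KMT2E, which lacks known methyltransferase activity, had 973, 996 and 862 units with salinomycin and 1036, 1166 and 1131 units without it (log2 change -0.24, SE 0.070; limma adjusted p = 0.00817), and lost its call under library-size scaling (-0.05).

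KMT2D, an enhancer H3K4 monomethyltransferase, had 1859, 2032 and 1488 units in salinomycin libraries and 1615, 2373 and 2820.2 units in untreated libraries. The groups overlapped and it did not pass (log2 change -0.31; limma adjusted p = 0.102). Without untreated replicate 1, the lowest untreated library for this gene, the log2 change was -0.54 (adjusted p = 0.000817), and under upper-quartile scaling it was -0.40 (adjusted p = 0.0383). KMT2A, the founding MLL gene, did not pass (0.10) and its sign turned without that library (-0.08). Both transcripts are long, with 19419 and 16628 exonic bases. In the longest 1309 tested genes (8270 bases or more), the median log2 deviation from the group mean was 0.06, 0.03 and -0.08 in the salinomycin libraries and -0.09, 0.03 and 0.07 in the untreated libraries. The part of this pattern in the results was not tested. Across the 69 members the rank correlation of log2 change with exonic length was -0.13, against -0.085 over 13083 tested genes, as a description.

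Of 10 partner subunits of the COMPASS and MLL-type complexes 5 rose and 3 fell, against 41.6% and 40.2% of all tested genes. In the core shared by these complexes, RBBP5 rose by 0.32, WDR5 and DPY30 changed by -0.22 and -0.24, and ASH2L did not pass (0.05). CXXC1, which brings the SET1 complexes to CpG islands, rose 6.32-fold to 1873 ± 68.9 units with salinomycin, against 296 ± 5.27 units without it. PAXIP1, a subunit of the KMT2C and KMT2D complexes, fell by 0.53 on the log2 scale.

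Of the other SETD family proteins 3 of 6 rose and 1 fell, against 41.6% and 40.2% of all tested genes. SETD3, known as an actin histidine methyltransferase, had 2254, 2451 and 2409 units with salinomycin, against 1576, 1649 and 1606 units without it (log2 change 0.56, SE 0.052; limma adjusted p = 7.5e-07). SETD9 had 18.5, 19.7 and 23.5 units with salinomycin and 51.9, 63.8 and 44.8 units without it, with no overlap (log2 change -1.33, SE 0.201; limma adjusted p = 6.01e-05). SETD7, a lysine monomethyltransferase of H3K4 and of other proteins, rose by 0.31. SETD4 changed by 0.20 (limma adjusted p = 0.0391), a call lost under 7 of the settings, among them each removal of a salinomycin library. SETD5 did not pass (-0.05). SETD6, a methyltransferase of RELA, did not pass (-0.20) but passed as lower under upper-quartile scaling (-0.28) and without untreated replicate 3 (-0.26).

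Of 18 tested histone demethylases 11 rose and 6 fell (61.1% and 33.3%), against 41.6% and 40.2% of all tested genes. Under library-size scaling 10 of 16 Jumonji genes were higher and 2 lower, against 6461 and 4353 of all 13088 tested genes. KDM6B, which removes H3K27 trimethylation (chromosome 17, 7839904 to 7854796), had 2430.2, 2568 and 2258 units in salinomycin libraries, against 731, 767 and 927 units in untreated libraries (log2 change 1.59, SE 0.085; limma adjusted p = 4.8e-09). Its paralog KDM6A rose by 0.78. KDM4C, an H3K9 and H3K36 demethylase, rose by 1.15, whereas the related KDM4A and KDM4B changed by -0.26 and -0.19. The KDM4A call was lost under library-size scaling (-0.07; adjusted p = 0.365). KDM7A, an H3K9 and H3K27 demethylase, rose by 0.91, KDM2A, an H3K36 demethylase, by 0.65, and KDM5C, an X-linked H3K4 demethylase, by 0.63.

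The H3K9 demethylases of the KDM3 group moved apart. KDM3B had 1017, 1020.1 and 976 units with salinomycin, against 2020.5, 2289 and 2214 units without it (log2 change -1.11, SE 0.058; limma adjusted p = 4.13e-09), while KDM3A, a known hypoxia-induced gene, rose by 0.40. KDM1B and KDM1A, the flavin-dependent H3K4 demethylases, also diverged. KDM1B had 448, 424 and 368 units in salinomycin and 213, 213 and 182 units in untreated libraries (log2 change 1.02, SE 0.0996; limma adjusted p = 1.21e-06). KDM1A, the CoREST subunit LSD1, had 1369, 1396 and 1368 units in salinomycin and 1825, 1889.5 and 1699 units in untreated libraries (log2 change -0.39, SE 0.054; limma adjusted p = 3.06e-05).

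The remaining Jumonji genes had smaller changes or low levels. KDM4D and KDM8 rose by 0.89 and 0.66 from low levels of 12.8 ± 1.05 and 36.4 ± 5.38 units in untreated libraries. KDM5A rose by 0.20 with overlapping groups, and did not pass under upper-quartile scaling (0.11) or without untreated replicate 1 (0.12), salinomycin replicate 1 (0.20) or salinomycin replicate 2 (0.14). KDM5B did not pass (-0.07), although it passed as lower under upper-quartile scaling (-0.16), and KDM5D changed by -0.52. KDM2B changed by -0.19, and like KDM4B it was within 0.01 of 0 under library-size scaling and lost its call under 8 of the settings. KDM4E was listed at 0 in every library except untreated replicate 2, at 1.06 units, and was not tested in the main fit.

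Ratios of 10 pairs of related members were compared within libraries, which removes the scaling of a library. The log2 ratio of EHMT2 to EHMT1 differed by -1.59 between groups, at -1.76 ± 0.056 in salinomycin and -0.17 ± 0.13 in untreated libraries (SD, n = 3 each). The differences were -1.5 for SIRT1 to SIRT2, -0.85 for KMT2D to KMT2C and -0.74 for EZH2 to EZH1. They were 1.41 for KDM1B to KDM1A, 0.98 for DNMT3B to DNMT3A, 0.80 for KDM6B to KDM6A and 0.43 for SUV39H1 to SUV39H2. The 3 salinomycin libraries did not overlap the 3 untreated libraries for these 8 pairs. As single genes, 83.0% of all tested genes had no overlap, and no such share was taken over other gene pairs. Each of the 8 pairs gave a two-sided exact permutation p of 0.1, the smallest that 3 against 3 allows (0.125 after Benjamini-Hochberg adjustment over 10 pairs), so none could pass 0.05. HDAC1 to HDAC2 (-0.17; exact permutation p = 0.2) and NSD2 to NSD1 (0.09; exact permutation p = 0.5) had overlapping groups.

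**Figure D4:**
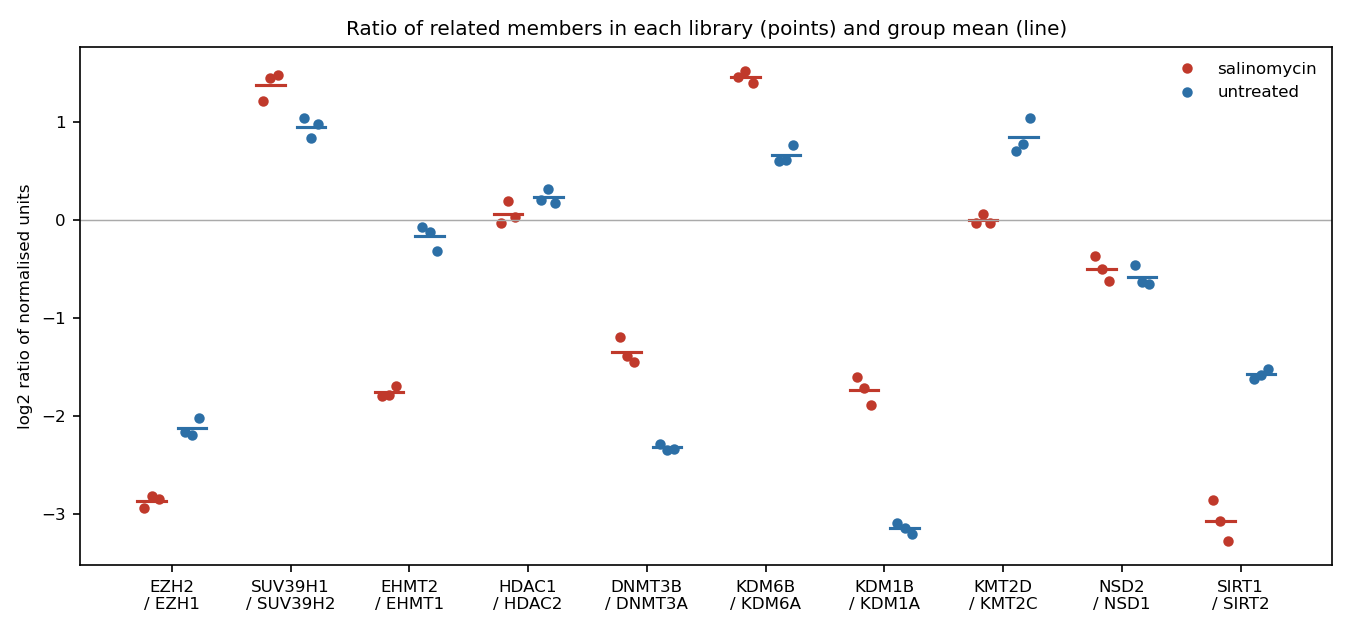
Log2 ratio of normalised units of 2 related members (vertical axis) in each salinomycin library (red) and untreated library (blue), with lines at group means, for 10 pairs. The EHMT2 to EHMT1 ratio lies near -1.76 with salinomycin and near -0.17 without it, and for NSD2 to NSD1 the groups overlap.

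Per kilobase of exonic sequence in GENCODE release 29, the order of levels changed. With salinomycin SIRT2 stood highest of the 71 members, at 2053 ± 98.7 units per kilobase, followed by HDAC6 (684 ± 31.9), KDM5C (653 ± 14.8) and SIRT7 (626). The last 3 lay close to each other. In untreated libraries HDAC1 was highest at 732 ± 37.8 units per kilobase, then HDAC3 (664 ± 9.68), KDM1A (577 ± 31.0) and SIRT2 (544 ± 11.1). HDAC1 ranked 13 and HDAC3 ranked 10 with salinomycin. The authors' annotation is not given in the sources used here, so these levels depend on the lengths taken.

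Enzymes and subunits around the members did not move in 1 direction either. Over all tested genes 41.6% rose and 40.2% fell, the background for each count here. HDAC corepressor subunits rose in 4 and fell in 7 of 16 cases. RCOR1, the CoREST scaffold, rose 2.50-fold, while TBL1X, a subunit of the NCoR complexes, fell 2.62-fold. Histone acetyltransferases, which oppose the deacetylases, rose in 3 and fell in 3 of 10 cases. HAT1, which acetylates new histones, rose 1.96-fold and KAT2B, the acetyltransferase PCAF, fell 2.81-fold. EP300, the acetyltransferase p300, did not pass (-0.02). Of 12 other histone methylation enzymes 4 rose and 5 fell. RIOX2, of the Jumonji family, rose 2.11-fold, and HR, the H3K9 demethylase hairless, fell 12.6-fold to 67.3 ± 1.9 units, against 864 ± 123 units in untreated libraries.

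Genes that supply the cofactors were measured too, against the same background of 41.6% higher and 40.2% lower over all tested genes. In the S-adenosylmethionine list 3 of 7 rose and 3 fell. MAT2A, the enzyme that makes S-adenosylmethionine, fell 2.00-fold to 2776 ± 135 units, against 5550.2 ± 223 units in untreated libraries, and MTR, methionine synthase, rose 1.98-fold. In the NAD list 2 of 8 rose and 5 fell. NMRK1, nicotinamide riboside kinase, rose 1.65-fold. NMNAT3, a mitochondrial NAD-synthesising enzyme, fell 11.6-fold to 7.79 ± 1.13 units, against 102 ± 26.98 units in untreated libraries. NMNAT3 passed the filter on low values only through the untreated libraries, where it is higher, so its call is weak support.

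**Figure D5:**
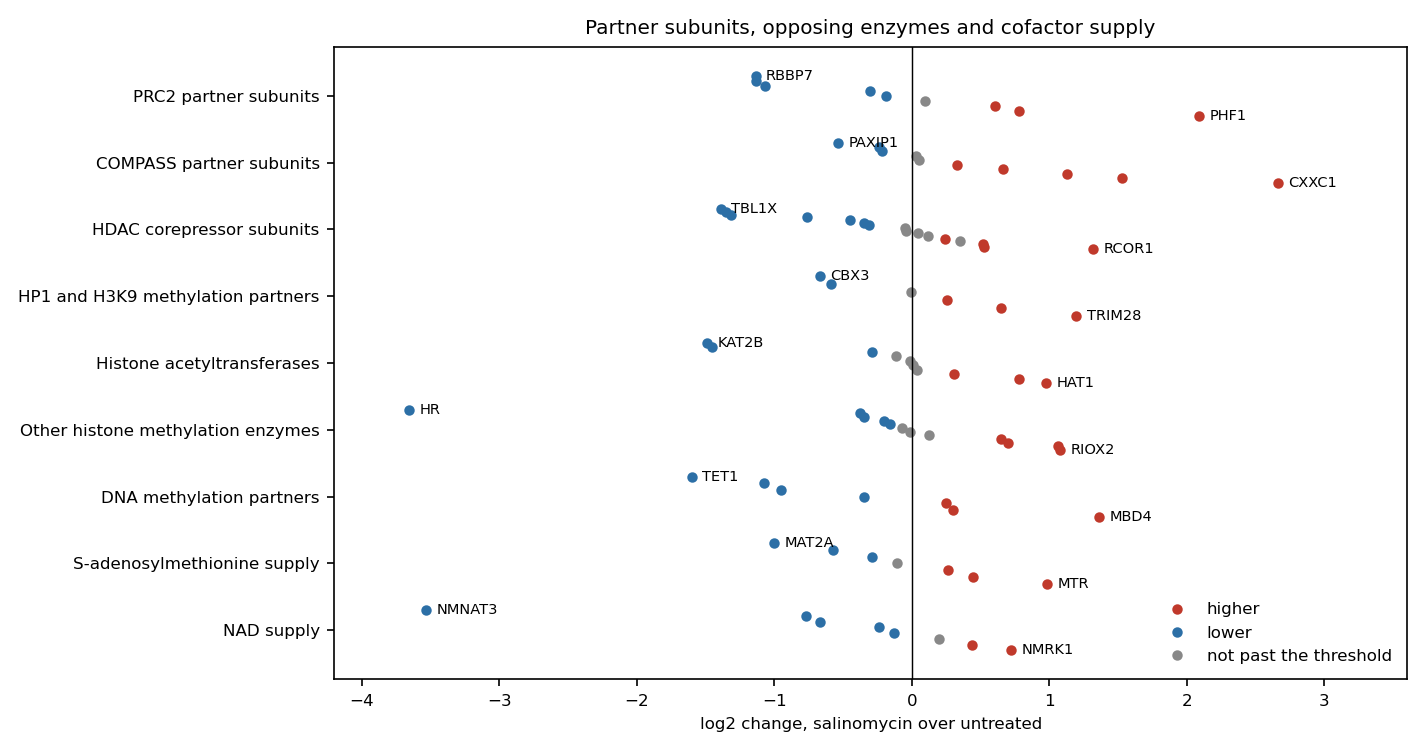
Log2 change of salinomycin over untreated (horizontal axis) for the genes of 9 lists around the members, 1 point per gene, red where higher, blue where lower and grey where not past the limma threshold, with the outermost genes named. Each list holds genes on both sides of 0, from HR at -3.65 to CXXC1 at 2.66.

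Gene sets were also matched by name. The match took in sets of MLL fusions, and it pooled sets of genes that rise with sets of genes that fall. The counts thus do not measure the activity of the enzymes. In the authors' deposited table of 21624 gene sets, 161 names hold one of the enzymes or marks, and of these 10 had a positive and 30 a negative normalised enrichment score at an adjusted p under 0.05 (6.21% and 18.6%, against 5.01% and 12.8% of all sets in that table). For H3K27me3 sets the authors' deposited table gave 0 positive and 7 negative of 22, and for EZH2 sets 0 and 2 of 8. Sets of genes that fell on knockdown of HDAC1 or of HDAC2 scored -2.01 and -2.06 in the authors' deposited table (adjusted p = 1.44e-07 and 2.56e-05). Sets of genes that rose on those knockdowns scored 1.21 and -0.79 there and did not pass. For HDAC3 the authors' deposited table gave negative scores both for genes that rose (-1.49) and for genes that fell (-1.46) on knockdown. Of 7 DNMT sets 2 were positive in the authors' deposited table, among them the DNMT3A target set at 1.598 (adjusted p = 6.97e-05). Names with MLL, fusion sets among them, gave 0 positive and 8 negative of 30 in the authors' deposited table. The matched sets share genes and rest on the same 6 libraries.

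At an adjusted p under 0.05 in the authors' deposited table, 40 of 70 members with a value were higher and 16 lower, against 6337 and 4249 of 15107 genes. The calls differed in part. EZH2, HDAC4, HDAC11, KDM2B, KDM4A, KDM4B, KMT2E and SETD2, called lower here, did not pass there. HDAC7, KMT5B, NSD3, SETDB1, SIRT3, SIRT5 and SUV39H2, not called here, were higher there. Each of these members likewise lost or gained its call here under library-size scaling. HDAC10, not tested in the main fit here, was lower there (log2 change -1.78). The authors' log2 changes lay above those given here, as for HDAC1 (-0.877, against -1.07) and SIRT2 (2.11, against 1.91).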

How the data were processed

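The 6 RNA-seq libraries, 3 with and 3 without salinomycin, all came from senescent A549 cells. Per the submitters' processing notes the genome build was GRCh38. For the aligner, counter and annotation, a name is not given in the sources used here. Signal values as deposited are whole numbers whose totals lie between 16270249 and 16382904, rescaled by the authors in a way that is not stated, with 1 as the lowest value. Per the file headers, the deposited table also holds the authors' means, log10 means, log2 fold changes, fold change ratio, test score and p-values. A second deposited table holds an enrichment score and p-values per gene set, per the file headers.

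Here 1 was subtracted, values were scaled by TMM factors (30% trimming of log ratios, 5% of levels; factors 1.0653 to 1.0802 for salinomycin and 0.925 to 0.94 for untreated libraries), and log2 of the value plus 1 was tested with limma 3.58.1 in R 4.3.3 with a mean-variance trend. A gene entered the test at 10 units before scaling in 3 or more libraries, as did 13088 genes and 69 members. Library depth was estimated from the steps that rescaling leaves in low values (scale factors 0.831 to 1.2035); in libraries with factors above 1, 99.59% or more of values up to 80 could be reached from whole reads. Within groups, the chi-square between library pairs was 2.81 to 6.32 per gene, above sampling noise. Each library was counted separately in the fits. This spread does not show whether the libraries of a group were separate cultures, which was not tested. Promoters came from RefSeq and coordinates and exonic lengths from GENCODE release 29 on GRCh38, 1-based, matched by symbol or gene ID for all 71 members.

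In each class the largest rise and fall past the threshold, and EZH2, EZH1, SUV39H1, SETDB1, KDM6B, HDAC1, SIRT1 and DNMT1, are given in every library, as is the largest rise and fall of each list of partner genes by fold. Other genes, the 4 promoters, the motifs and the gene sets quoted were chosen after their values were seen. The members, lists and tests were chosen with earlier results of these data known. Alternatives were 3 other scalings, no filter and a filter of 50, pseudocounts of 0.5 and 8, limma-voom, a replicate block and leaving out each library. Limma-voom on recovered reads and scaling without mitochondrially encoded genes were added after seeing the data.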

Additional observations from a re-analysis of the deposited data

How the results depend on the processing

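The 15 members changed at least 2-fold kept direction and call wherever tested, and 46 of the 56 called members did so under each of the 17 settings in which they were tested. The exceptions were EZH2, HDAC4, HDAC11, KDM2B, KDM4A, KDM4B, KDM5A, KMT2E, SETD2 and SETD4. Under library-size scaling 15 of 69 members were lower, against 4353 of all 13088 tested genes. The median log2 change of the members (0.197) was 0.11 with upper-quartile scaling, 0.384 with library-size scaling, 0.148 with no filter and with the stricter filter, and 0.164 with a pseudocount of 8, and it ran from 0.142 to 0.202 when a library was left out. Signs turned under library-size scaling for HDAC11 (0.0198), KDM2B (0.00085), KDM4B (0.0052), KDM5B (0.12) and SETD5 (0.145), and under upper-quartile scaling for HDAC7 (-0.018) and SETDB1 (-0.00052). Leaving out a library moved KMT2A between -0.082 and 0.20 and SETD5 between -0.12 and 0.012. The cause was not tested.

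Leaving out a library gave 31 to 34 of 69 members higher, 20 to 23 lower and 14 to 17 changed at least 2-fold. Of the 12744 to 12770 genes tested in those fits, 4904 to 5385 were higher and 4824 to 5139 lower. The 2-fold share over all genes was taken in the main fit only (35.3%). Limma-voom on recovered reads gave 33 higher and 21 lower members and 5533 higher and 5183 lower genes. Replicate numbers are shared by the groups, but the deviations of same-numbered libraries correlated at -0.17, -0.01 and -0.03, so the numbers are not taken as pairs. With the replicate block 32 members rose and 20 fell, 15 changed at least 2-fold with a median of 0.197, and 5325 genes rose and 5130 fell. HDAC11, KDM2B, KDM4B and SETD4 were not called under the block. Low reads limit HDAC9, HDAC10, KDM4D and KDM4E.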
